A study of Homo sapiens with 8 samples.

Results

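The 9 genes described here encode the machinery that starts anaphase, and they were picked by symbol from the 60230 genes of the count table: the protease separase (ESPL1), its inhibitor securin (PTTG1), the shugoshins SGO1 and SGO2, the activators CDC20 and FZR1 of the anaphase-promoting complex (APC/C), its ubiquitin-conjugating enzymes UBE2C and UBE2S, and its inhibitor FBXO5. Each symbol matched a single protein-coding gene, and all 9 genes passed the filter on low counts. The cells were HepG2, an established line from a human liver carcinoma, which had been transfected to overexpress the drug-metabolising enzyme CYP3A4 and were kept under blasticidin. All 4 groups shared this background. Control cells received 0.2% DMSO, and the others received compound 4, 5, or 6, which are antioxidants used in plastics, for 24 h. Each compound was given at its own IC50, so that concentrations differed between compounds. Compounds 4 and 6 are methylene-bridged bisphenols that carry tert-butyl or cyclohexyl groups. Compound 5 is a bisphenol with tert-butyl groups whose rings are joined to the same carbon of an ethane unit. Each group held 2 samples, labelled day 1 and day 2 and called replicates 1 and 2 here. Nothing in the labels says that they were separate cultures, so p-values measure only the spread between these samples, which may be technical.

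Sister chromatids are held together by cohesin rings until all chromosomes are attached to the spindle. The APC/C, a large ubiquitin ligase, is then switched on by CDC20 and marks securin and cyclin B for destruction. Freed from securin, separase cuts cohesin and the chromatids part. Later in mitosis and in G1, FZR1 (also named CDH1) takes the place of CDC20 and directs the ligase to CDC20 itself, mitotic kinases and other proteins. FBXO5 (EMI1) keeps the ligase off during S and G2 phase. Transcripts of most of these genes rise towards mitosis in dividing cells.

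Libraries held between 9472261 and 13308975 counts, and 3 counts in a library equalled 0.225 to 0.317 CPM (counts scaled to library size), which covers counting error only. Replicates differed by more than counting noise in every group, with a chi-square per degree of freedom between 5.51 in DMSO and 17.2 with compound 4, and none was treated as a duplicate. The 8 hepatocyte markers were detected in all libraries, at a summed level of 39176 to 40991 CPM in DMSO, 30496 to 30646 with compound 4, 32545 to 32711 with compound 5, and 31096 to 37501 with compound 6. In edgeR, 3 were called lower and 1 higher with compound 4, 3 lower with compound 5, and 2 lower with compound 6. Among all tested genes, 5.42%, 14.2%, and 1.6% were lower, and 6.5% were higher with compound 4. Single markers differed from the sum. TTR was above both DMSO samples with compound 4 (126 and 149 CPM, against 99.3 and 74.6). So was FGB with compound 5 (206 and 250, against 192 and 187). APOB measured 6521 and 2889 CPM in the 2 samples of compound 4. Of the 6 fibroblast and 5 leukocyte markers, only PDGFRB and CD68 stayed above 1 CPM in every library, and COL1A2, LUM, DCN, PTPRC, and CD3E were at 0 in all of them. COL1A1 and COL3A1 were detected in 2 libraries and 1 library of compounds 4 or 6, at no more than 0.104 CPM, and CD79A in 7 of 8, at no more than 0.329 CPM. CD14 measured 0.0985 and 0.164 CPM in DMSO and 0.941 and 1.25 with compound 4, and the 2 leukocyte markers that passed the filter, CD14 and CD68, were both called higher with compound 4 (edgeR adjusted p = 0.0162 and 0.0079), as was PDGFRB (0.00864). CD14 was also called with compound 6 (0.0476), but not with the replicate block. The fibroblast markers summed to 1.64 and 2.66 CPM in DMSO, 6.32 and 8.72 with compound 4, 2.67 and 4.58 after compound 5, and 3.86 and 5.44 after compound 6. The leukocyte markers summed to 27.5 and 38.6 CPM in DMSO, 57.5 and 59.1 with compound 4, 36.3 and 39.7 after compound 5, and 48.6 and 51.6 after compound 6. Both sums were nearly all PDGFRB and CD68. The 4 proliferation markers MKI67, PCNA, TOP2A, and CDK1 summed to between 1145 and 1273 CPM in DMSO, to 549 and 582 with compound 4, to 709 and 710 with compound 5, and to 616 and 865 with compound 6. Their sum moved with most of the genes below, but edgeR called 4 of the 4 lower with compound 4, 3 with compound 5, and 2 with compound 6. MKI67 measured 185 and 271 CPM in DMSO and 127 and 61.9 with compound 4. With compound 5 it overlapped with DMSO, at 193 and 160 CPM. Neither the part of these markers in the results below nor that of the hepatocyte, fibroblast, and leukocyte markers was tested. In bulk RNA, fewer cells in a cell cycle phase and less RNA per cell cannot be told apart.

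Promoter sequences were looked at because most of the 9 genes moved together. The RefSeq table for GRCh38.p14 held 8 of the 9 genes, all but UBE2C. In the 250 bases before the start, the cell cycle homology region TTTGAA, read on both strands, was present in 3 of the 8 (ESPL1, CDC20, and FZR1) and in 13.6% of 27305 promoters. The CCAAT box, CCAAT on either strand, was present in 5 (ESPL1, PTTG1, CDC20, SGO1, and UBE2S) and in 33.0% of all promoters. The variant TTCGAA and the E2F-type motifs TTTGGCGC and GGCGGGAA were in 0 of the 8, and in 1.2%, 0.6%, and 2.8% of promoters. Matches can overlap: PTTG1 carries CCAAT on both strands within 1 stretch. A match describes letters and not a bound factor. The stretches of the separase, securin, and CDC20 promoters, whose transcripts were lower, are shown beside that of FBXO5, also lower but with neither motif, and that of UBE2S, whose transcript was not lower. Each runs from 120 bases before the RefSeq start to the last base before any annotated start, 5′ to 3′ along the gene, with both motifs in capitals.
ESPL1, chr12:53268179-53268298, plus strand: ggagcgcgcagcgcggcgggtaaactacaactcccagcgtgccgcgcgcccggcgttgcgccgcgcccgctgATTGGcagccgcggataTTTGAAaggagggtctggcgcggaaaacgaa
PTTG1, chr5:160421735-160421821, plus strand: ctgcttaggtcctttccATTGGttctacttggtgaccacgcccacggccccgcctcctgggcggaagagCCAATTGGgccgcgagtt
CDC20, chr1:43358861-43358954, plus strand: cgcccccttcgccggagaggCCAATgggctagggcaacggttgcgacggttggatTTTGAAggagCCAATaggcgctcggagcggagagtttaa
FBXO5, chr6:152983580-152983699, minus strand: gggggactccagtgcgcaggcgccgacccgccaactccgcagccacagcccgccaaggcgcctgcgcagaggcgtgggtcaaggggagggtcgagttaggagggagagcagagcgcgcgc
UBE2S, chr19:55407789-55407908, minus strand: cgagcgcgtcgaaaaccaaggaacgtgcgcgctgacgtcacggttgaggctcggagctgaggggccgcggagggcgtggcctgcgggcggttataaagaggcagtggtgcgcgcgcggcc
In ESPL1 the TTTGAA lay 31 to 26 bases before the start, next to an inverted CCAAT box 48 to 44 bases before it. In CDC20 it lay 65 to 60 bases before the start, between CCAAT boxes that began 100 and 55 bases before it, and a second match on the other strand lay 178 to 173 bases before it. FBXO5 and SGO2, whose transcripts were also lower, held neither motif in the whole 250 bases. The UBE2S stretch held neither motif, and the inverted CCAAT box of that gene lay farther out, 191 to 187 bases before the start. FZR1, whose transcript level was similar in all groups, also held a TTTGAA, 226 to 221 bases before its start.

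The transcripts of separase, securin, both shugoshins, CDC20, UBE2C, and FBXO5 were below both DMSO samples in every treated sample. FZR1 stayed close to the DMSO level, and UBE2S was higher with compound 5. With compound 4, 7 of the 9 genes were lower and 0 higher at an adjusted p under 0.05 in edgeR, where 5.42% of 13404 tested genes were lower. With compound 5, 6 were lower, against 14.2% of tested genes, and UBE2S was higher, against 13.9%. The balance over all genes with compound 5 moved with the scaling, from 1906 lower and 1857 higher here to 2718 and 1358 with library size alone, 2515 and 1449 with upper-quartile scaling, and 1201 and 1743 in DESeq2. With compound 6, 3 were lower, against 1.6% of tested genes, and 0 higher. At an unadjusted p under 0.05, compound 6 gave 7 genes, and the share of all genes at that cutoff is not given here. DESeq2 called 4 with compound 6, and 717 of all genes where edgeR called 590. The median log2 fold change of the 9 genes was -0.83, -0.55, and -0.67 for compounds 4, 5, and 6, whereas the median of all tested genes was 0.0001, -0.03, and 0.0028. All treated samples lay below both DMSO samples for 8, 7, and 8 genes with compounds 4, 5, and 6, which held for 27.1%, 37.3%, and 26.6% of tested genes. The 3 comparisons share their DMSO samples and are not independent of each other.

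**Figure D1:**
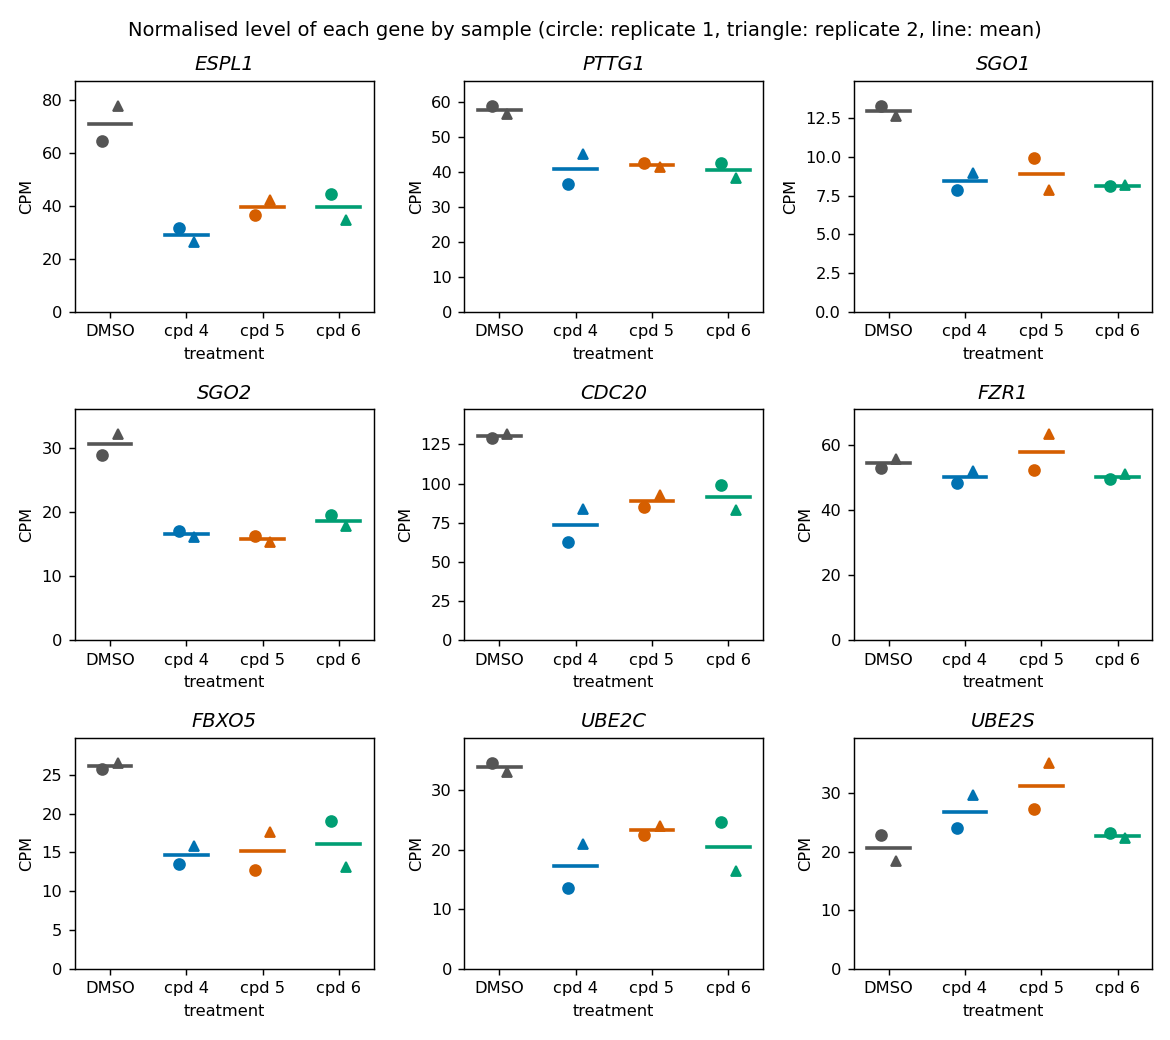
Normalised level (CPM, linear axes from 0) of each of the 9 genes in the 8 samples, by treatment (cpd, compound), with replicate 1 as a circle, replicate 2 as a triangle, and the mean of both as a line. In 7 panels every treated sample sits below both DMSO samples, whereas FZR1 stays between 48.2 and 63.2 CPM and UBE2S is highest with compound 5.

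Leaving out single libraries changed how many of these calls were made. For compound 4, the 7 calls became 3 without DMSO replicate 1, 2 without DMSO replicate 2, and 3 without compound 4 replicate 1. In the same fits 663, 335, and 1662 of all tested genes were called, against 1598 with all libraries, so that the count over all genes fell without a DMSO library and did not fall without the compound 4 library. For compound 5, the 7 calls became 3, 2, 3, and 3 without DMSO replicate 1, DMSO replicate 2, compound 5 replicate 1, and compound 5 replicate 2, where calls over all genes fell from 3763 to 1685, 2007, 1680, and 2139. For compound 6, 0 of the 9 genes were called without DMSO replicate 1, DMSO replicate 2, or compound 6 replicate 2, whereas 7 were called without either compound 4 replicate. Calls over all genes for compound 6 moved the same way, from 590 to 90, 1, and 49 in the former fits and to 1090 and 1096 in the latter. With compounds 4 and 5, ESPL1 and SGO2 were called in all 8 of these fits. The direction of the 7 genes that were lower did not change in any of them.

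Separase, the cysteine protease that cleaves the RAD21 subunit of cohesin, had the lowest fold change of the 9 genes with compounds 4 and 6. ESPL1 lies at chr12:53268299-53293643 on the plus strand (GENCODE 29, GRCh38). Its level was 64.5 and 77.9 CPM in DMSO, 31.6 and 26.3 with compound 4, 36.6 and 42.5 after compound 5, and 44.6 and 34.7 after compound 6. The groups did not overlap, and even the highest treated sample, replicate 1 of compound 6, was well under the lower DMSO sample. With compound 4 the level was 40.6% of DMSO, a log2 fold change of -1.30 ± 0.16 (SE, n = 2 per group; edgeR adjusted p = 0.00111). With compounds 5 and 6 it was 55.5% each (-0.85 ± 0.16 in both, adjusted p = 0.00323 and 0.0166 in edgeR). The call for compound 6 was lost without DMSO replicate 1 (adjusted p = 0.0558), DMSO replicate 2 (0.177), or compound 6 replicate 2 (0.224).

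Securin, the chaperone and inhibitor of separase, was also lower with all 3 compounds, by less than separase in each. PTTG1 lies at chr5:160421822-160428744 on the plus strand. It measured 59.0 and 56.7 CPM in DMSO, 36.7 and 45.2 with compound 4, 42.7 and 41.5 after compound 5, and 42.6 and 38.4 after compound 6. The treated samples of the 3 compounds overlapped each other and stayed below both controls. They gave log2 fold changes of -0.50 ± 0.12, -0.46 ± 0.12, and -0.52 ± 0.13 (SE, n = 2 per group; edgeR adjusted p = 0.0263, 0.02, and 0.0453 for compounds 4, 5, and 6). When the replicate number entered the model as a block, the call for compound 6 was lost (edgeR adjusted p = 0.0618). For compounds 4 and 5 the adjusted p was between 0.0897 and 0.139 without either DMSO replicate, and the fold change was -0.35 (adjusted p = 0.0915) without compound 4 replicate 1. A fit of only the DMSO and compound 4 samples gave an adjusted p of 0.0562. The calls were also lost without either compound 5 replicate in compound 5 (0.103 and 0.11), without compound 5 replicate 2 in compound 4 (0.0501), and in compound 6 without any single DMSO, compound 5, or compound 6 replicate (0.0546 to 0.366).

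Within a library, the ratio of separase to securin counts was 1.09 and 1.37 in DMSO. It was 0.863 and 0.581 with compound 4, 0.856 and 1.02 after compound 5, and 1.05 and 0.903 after compound 6. All 6 treated libraries were below both DMSO libraries, but the 2 DMSO libraries differed from each other by more than the gap between the lower of them and the highest treated library. With 2 libraries against 2, the smallest p that an exact permutation test can give is 0.333, and ratios are given here as values with no test.

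Shugoshins shield centromeric cohesin from early removal by bringing in the phosphatase PP2A, a role that falls mainly to SGO1 in mitosis. SGO2 lies at chr2:200510008-200583782 on the plus strand and was among the most steadily called genes of the 9. It stood at 28.9 and 32.1 CPM in DMSO, 17.0 and 16.1 with compound 4, 16.2 and 15.3 after compound 5, and 19.5 and 17.8 after compound 6. Replicates were close together, and no treated sample came near the controls. Against DMSO the log2 fold changes were -0.88 ± 0.13, -0.96 ± 0.13, and -0.72 ± 0.13 (SE, n = 2 per group; edgeR adjusted p = 0.00212, 0.000654, and 0.0154). Only the call for compound 6 was lost when a library was left out (DMSO replicate 1, 0.0687; DMSO replicate 2, 0.158; compound 6 replicate 2, 0.204).

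SGO1, at chr3:20160593-20186292 on the minus strand, was the least abundant of the 9 genes, with 78 to 154 counts per library. Its level was 13.3 and 12.7 CPM in DMSO, 7.87 and 8.97 with compound 4, 9.90 and 7.85 after compound 5, and 8.13 and 8.15 after compound 6. Every treated sample was below both controls. The log2 fold changes of -0.62 ± 0.17 and -0.55 ± 0.17 passed the test for compounds 4 and 5 (edgeR adjusted p = 0.0371 and 0.0327, SE, n = 2 per group), and -0.67 ± 0.17 for compound 6 did not (0.0539), although it did without either compound 4 replicate (0.0376 and 0.0434). DESeq2 made no call for SGO1 in any of the 3 comparisons, with adjusted p of 0.167 and 0.193 for compounds 4 and 5. In edgeR, the calls for compounds 4 and 5 were lost without any single library of the groups compared (adjusted p between 0.0517 and 0.216). The ratio of SGO1 to SGO2 counts was 0.459 and 0.394 in DMSO and between 0.417 and 0.610 in the treated libraries, so the groups overlapped.

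The 2 activators of the APC/C had different values. CDC20, which opens the ligase at metaphase and is also the target of the spindle checkpoint, lies at chr1:43358955-43363203 on the plus strand. It measured 129 and 131 CPM in DMSO, 62.8 and 83.7 with compound 4, 85.3 and 92.6 after compound 5, and 99.2 and 83.3 after compound 6. The controls were nearly equal, and the closest treated sample, replicate 1 of compound 6, was still clearly below them. Its log2 fold changes were -0.83 ± 0.14 and -0.55 ± 0.14 for compounds 4 and 5 (SE, n = 2 per group; edgeR adjusted p = 0.00492 and 0.0161). For compound 6 the value was -0.52 ± 0.14 and did not pass in edgeR (adjusted p = 0.0673), but did in DESeq2 (0.0214) and in edgeR without either compound 4 replicate (0.0153 and 0.0167). The call for compound 4 was lost without DMSO replicate 2 (0.0535), and that for compound 5 without any single library of DMSO or compound 5 (0.057 to 0.128).

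FZR1, at chr19:3506273-3538330 on the plus strand, measured 53.0 and 55.5 CPM in DMSO, 48.2 and 51.8 with compound 4, 52.3 and 63.2 after compound 5, and 49.3 and 51.1 after compound 6. Replicate 2 of compound 5 was the highest of the 8 samples and replicate 1 of the same compound lay below both controls. The log2 fold changes were -0.12 ± 0.12, 0.09 ± 0.12, and -0.11 ± 0.12 (SE, n = 2 per group), with edgeR adjusted p of 0.572, 0.587, and 0.655. The 95% confidence intervals reached from -0.38 to 0.14, from -0.17 to 0.35, and from -0.37 to 0.15, so that a decrease of the size seen for CDC20 with compound 4 lay outside all 3. The small positive value with compound 5 turned negative when libraries were scaled by their totals alone (-0.013) and without compound 5 replicate 2 (-0.052).

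The ratio of CDC20 to FZR1 counts was lower in every treated library. It was 2.44 and 2.37 in DMSO, 1.30 and 1.62 with compound 4, 1.63 and 1.47 after compound 5, and 2.01 and 1.63 after compound 6. The highest treated value, in replicate 1 of compound 6, was closer to the controls than to the lowest treated library.

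FBXO5, the F-box protein that blocks both forms of the ligase before mitosis, lies at chr6:152970519-152983579 on the minus strand. It measured 25.7 and 26.5 CPM in DMSO, 13.5 and 15.8 with compound 4, 12.7 and 17.6 after compound 5, and 19.1 and 13.1 after compound 6. The controls lay close together and every treated sample was lower, with wider gaps between replicates for compounds 5 and 6. The log2 fold changes were -0.83 ± 0.20 and -0.78 ± 0.20 for compounds 4 and 5 (SE, n = 2 per group; edgeR adjusted p = 0.0213 and 0.0149), and -0.71 ± 0.20 for compound 6 did not pass (0.0699). Without 1 library the value for compound 6 ranged from -0.97 (without compound 6 replicate 1) to -0.44 (without replicate 2), and it passed in 3 of 8 fits. The calls for compounds 4 and 5 were lost without either DMSO replicate or without replicate 1 of the compound (adjusted p between 0.0636 and 0.14).

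The inhibitor was then set against the 2 activators. The ratio of FBXO5 to CDC20 counts was 0.199 and 0.202 in DMSO and between 0.149 and 0.215 in treated libraries, which overlapped with the controls. The ratio of FBXO5 to FZR1 counts was 0.485 and 0.479 in DMSO and lower in all treated libraries, 0.280 and 0.304 with compound 4, 0.243 and 0.278 after compound 5, and 0.387 and 0.257 after compound 6.

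**Figure D2:**
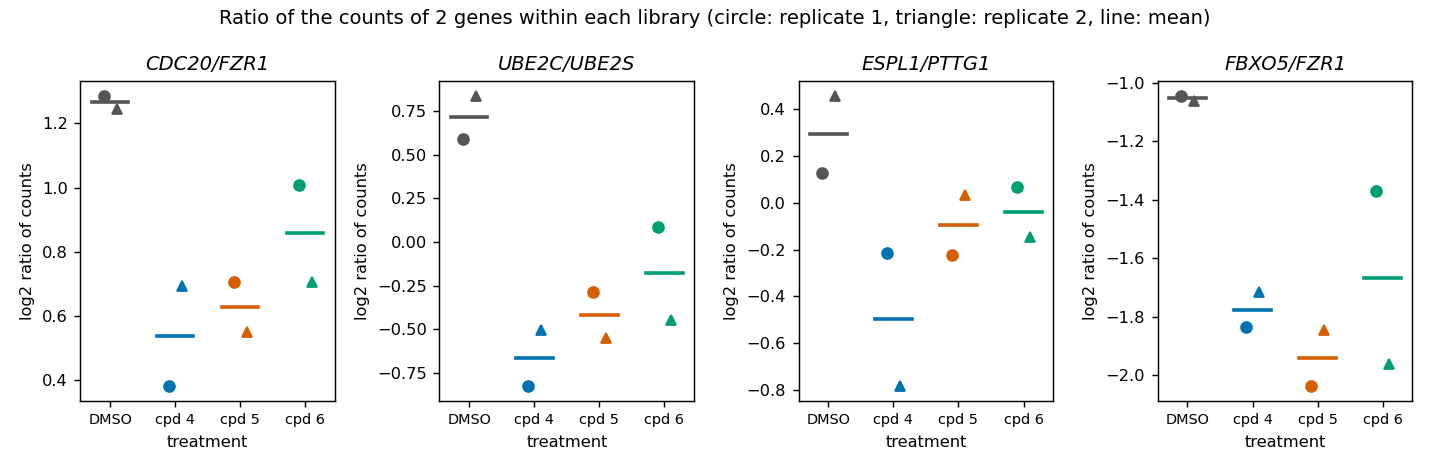
Log2 of the ratio between the counts of 2 genes within each of the 8 libraries, by treatment (cpd, compound), with replicate 1 as a circle, replicate 2 as a triangle, and the mean as a line; the vertical axes differ and do not start at 0. For CDC20/FZR1, UBE2C/UBE2S, and FBXO5/FZR1 all treated libraries lie below the DMSO libraries, with replicate 1 of compound 6 the closest to them, and for ESPL1/PTTG1 the gap is smaller than the spread in DMSO.

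The 2 ubiquitin-conjugating enzymes of the APC/C had values of opposite sign. UBE2C, which places the first ubiquitins on a substrate, lies at chr20:45812576-45816957 on the plus strand. It measured 34.6 and 33.0 CPM in DMSO, 13.6 and 20.9 with compound 4, 22.5 and 24.0 after compound 5, and 24.6 and 16.4 after compound 6. All treated samples were lower than the controls, and the lowest was replicate 1 of compound 4. The log2 fold change of -0.96 ± 0.22 with compound 4 passed the test (SE, n = 2 per group; edgeR adjusted p = 0.0161), and was lost without either DMSO replicate (0.0863 and 0.0917) or compound 4 replicate 1 (0.0504). With compounds 5 and 6 the values were -0.54 ± 0.21 and -0.73 ± 0.21 (adjusted p = 0.0795 and 0.0811). Without 1 library the value for compound 6 ranged from -1.01 (without compound 6 replicate 1) to -0.45 (without replicate 2), and passed in 3 of 8 fits, against 2 of 8 for compound 5. Those 2 comparisons passed when only the samples compared entered the fit (edgeR adjusted p = 0.00485 and 0.0343).

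UBE2S, which extends the ubiquitin chain and lies at chr19:55399745-55407777 on the minus strand, was the only one of the 9 genes with positive values for all 3 compounds. It measured 22.9 and 18.4 CPM in DMSO, 24.1 and 29.6 with compound 4, 27.4 and 35.2 after compound 5, and 23.1 and 22.3 after compound 6. The samples of compounds 4 and 5 were above both controls, whereas replicate 1 of compound 6 lay just above them and replicate 2 between them. The log2 fold change was 0.61 ± 0.17 with compound 5 (SE, n = 2 per group; edgeR adjusted p = 0.0231), and 0.38 ± 0.17 and 0.14 ± 0.17 with compounds 4 and 6 (0.177 and 0.709). The call for compound 5 was lost without DMSO replicate 2 (0.143) or compound 5 replicate 2 (0.179), and the value for compound 6 was -0.012 without DMSO replicate 2. The ratio of UBE2C to UBE2S counts was 1.51 and 1.79 in DMSO, 0.564 and 0.705 with compound 4, 0.819 and 0.682 after compound 5, and 1.06 and 0.734 after compound 6, so that all treated libraries were below both controls.

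**Figure D3:**
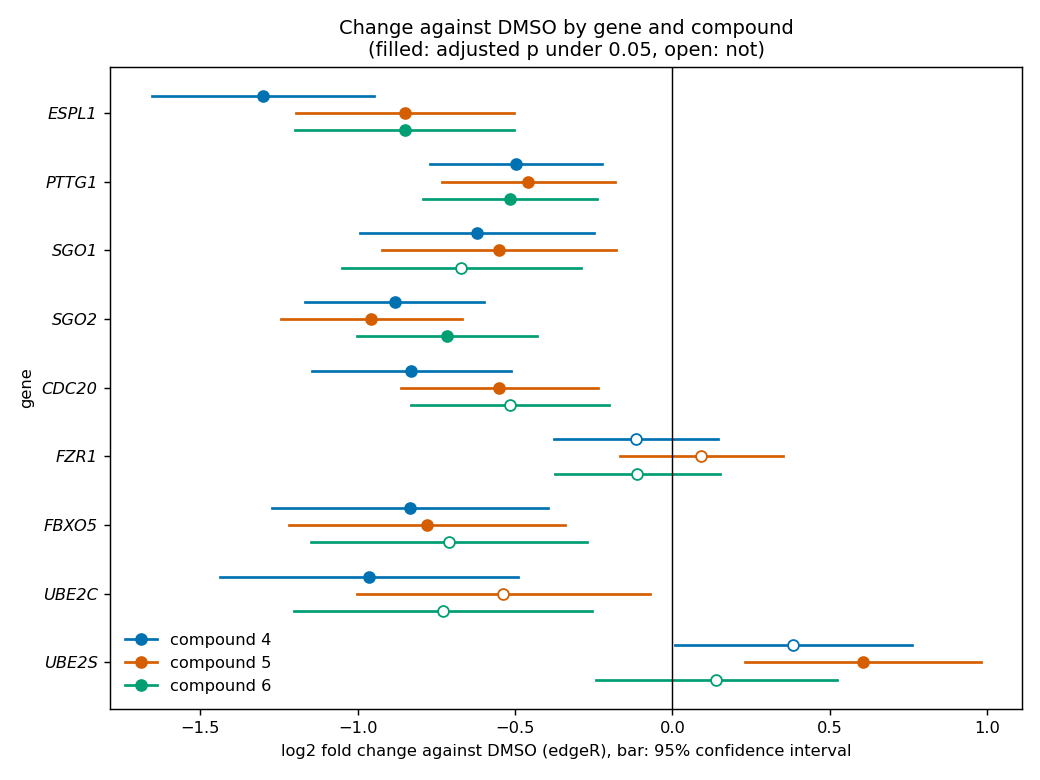
Log2 fold change against DMSO (horizontal axis, edgeR) of the 9 genes (vertical axis) for each compound, with the 95% confidence interval as a bar; filled points have an adjusted p under 0.05. ESPL1 with compound 4 lies farthest to the left at -1.30, the intervals of FZR1 span 0 for all compounds, and UBE2S with compound 5 is the only filled point to the right.

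Some of these genes have processed copies elsewhere in the genome, which can share reads with them. Of the 31-base words in the transcripts of CDC20, 20.3% also occur in CDC20P1, and 15.5% and 10.9% of those of UBE2S occur in UBE2SP1 and UBE2SP2. For PTTG1, 5.55% occur in PTTG3P and 2.99% in PTTG2. The estimated counts placed almost nothing on these copies: CDC20P1, PTTG2, and PTTG3P were at 0 in all 8 libraries, and UBE2SP1 and UBE2SP2 had at most 2 counts. UBE2CP5 was the only copy above the level of 3 counts, with 8 to 29 counts (0.845 to 2.18 CPM). Adding the copies to their parent genes changed no call.

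Levels were compared between genes per kilobase of the longest coding transcript. In DMSO, CDC20 was highest with 73.3 ± 0.90 CPM per kb (SD, n = 2), followed by PTTG1 with 54.1 ± 1.5 and UBE2C with 36.9 ± 1.2. FBXO5 (11.8 ± 0.27), ESPL1 (10.8 ± 1.4), and FZR1 (10.4 ± 0.34) formed a run whose neighbours overlapped, as did UBE2S (8.11 ± 1.3) and SGO2 (7.25 ± 0.54). SGO1 was lowest with 5.02 ± 0.17. With compound 4, CDC20 (41.2 ± 8.3) and PTTG1 (38.3 ± 5.7) overlapped, and UBE2S (10.5 ± 1.5) ranked next after UBE2C. The order rests on the transcript length used: with the shortest coding transcript ESPL1 came first in DMSO, at 99.7 ± 13 CPM per kb.

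Over the 8 samples, UBE2C, CDC20, PTTG1, FBXO5, and ESPL1 followed the mean standardised profile of the other members most closely, with Pearson's r of 0.952, 0.942, 0.920, 0.895, and 0.848. SGO1 and SGO2 came next (0.786 and 0.745), FZR1 was loosely related (0.386), and UBE2S ran opposite (-0.411). These r describe 8 libraries in 4 groups and come with no p. Among 10534 genes that averaged 5 CPM or more, the genes closest to the mean profile of all 9 were TF, TSN, TACC3, TRAIP, and AURKB (r = 0.986, 0.985, 0.985, 0.982, and 0.981). TF is transferrin, a plasma protein of hepatocytes, and its level was 5704 and 5469 CPM in DMSO against 3458 to 4464 in treated samples. TACC3 acts on the spindle and AURKB is the kinase of the chromosomal passenger complex. AURKB measured 67.6 and 66.7 CPM in DMSO and 23.9 to 44.4 CPM in treated samples.

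The compounds were also compared with each other, gene by gene, although at different concentrations. No member passed the test: edgeR called 0 of 9 between compounds 5 and 4, 5 and 6, and 4 and 6, where 13.9%, 9.91%, and 0.0448% of all tested genes were called. DESeq2 also called 0 in each, and 1 gene in each comparison had an unadjusted p under 0.05. ESPL1 was higher with compound 5 than with compound 4 by 0.45 on the log2 scale (95% confidence interval 0.09 to 0.81, edgeR adjusted p = 0.0845), and lower with compound 4 than with compound 6 by a log2 value of -0.45 (-0.81 to -0.09, adjusted p = 0.441). The samples of compound 4 did not overlap with those of the other compounds for this gene. Without compound 4 replicate 1, the difference from compound 5 was 0.59. Replicate 2 of compound 4 had the lower ESPL1 level of the 2 (26.3 against 31.6 CPM). It was also lower for APOB (2889 against 6521 CPM) and MKI67 (61.9 against 127). That replicate was higher for ALB (15080 against 12910 CPM), PTTG1, CDC20, and UBE2C, and TOP2A was nearly equal (180 against 183). Whether transcript length or RNA quality played a part was not tested. UBE2S was higher with compound 5 than with compound 6 by 0.47 (0.09 to 0.84, adjusted p = 0.105). Without 1 library this difference ranged from 0.27 (without compound 5 replicate 2) to 0.64 (without compound 5 replicate 1), and that of ESPL1 between compounds 4 and 6 from -0.63 (without compound 6 replicate 2) to -0.28 (without compound 6 replicate 1).

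These tests do not show that the compounds acted alike, and the intervals give the differences that remain possible. CDC20 differed by 0.28 between compounds 5 and 4 (95% confidence interval -0.04 to 0.60), by -0.03 between 5 and 6 (-0.35 to 0.28), and by -0.31 between 4 and 6 (-0.63 to 0.0028). Without compound 4 replicate 1 and 2, the first of these was 0.0889 and 0.51 and the last -0.12 and -0.54, none of which passed. SGO2 differed by -0.07 (-0.37 to 0.22), -0.24 (-0.54 to 0.06), and -0.17 (-0.46 to 0.13) in the same order. ESPL1 was almost equal between compounds 5 and 6, with a difference of 0.0011 (-0.35 to 0.35).

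The proteins that the machinery is built from, restrained by, and directed against were examined as 5 lists with 65 genes in all, every one of which passed the filter on low counts. Of these, 29 were lower and 1 higher with compound 4, 26 lower and 3 higher with compound 5, and 21 lower and 1 higher with compound 6, beside the 5.42%, 14.2%, and 1.6% lower and 6.5%, 13.9%, and 2.8% higher among all tested genes. With compound 6, 0 of the 65 were called without DMSO replicate 1, DMSO replicate 2, or compound 6 replicate 2. For compound 4, 19 were called without DMSO replicate 2, and for compound 5, 9 without compound 5 replicate 1, 16 without DMSO replicate 2, and 19 without compound 5 replicate 2. Calls over all genes also fell in these fits, by the counts given for the 9 genes. The 3 proportions cannot be read as independent, since the comparisons share the DMSO samples. Between compounds 5 and 4, edgeR called 8 of the 65, a share near the 13.9% of all 13404 tested genes. They were 2 of the 14 APC/C subunits, 1 of the 10 checkpoint genes, 4 of the 13 cohesin genes, 1 of the 19 substrates, and 0 of the 9 phosphatase genes. DESeq2 called 17 of the 65 and 1552 of all genes, where edgeR called 1869, and the edgeR count over all genes fell to 111 and 167 without compound 5 replicate 1 and 2.

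The 14 core subunits of the APC/C itself were examined next. With compounds 4 and 6, edgeR and DESeq2 called 0 of them, where edgeR called 11.9% and 4.4% of all tested genes in either direction. With so few subunits, 0 calls lie close to those shares. An unadjusted p under 0.05 was reached by 3 subunits in each, and the share of all genes at that cutoff is not given here. For compound 4, the unadjusted edgeR p of 0.0465 for UBE2S ranked 3510 among the 13404 tested genes. The median log2 fold change was -0.15, -0.23, and -0.12 for compounds 4, 5, and 6. The scaffold and cullin subunit ANAPC2 measured 44.1 and 42.8 CPM in DMSO and 26.7 and 37.8 with compound 4 (-0.43 ± 0.16, edgeR adjusted p = 0.109, SE, n = 2 per group), with values of -0.27 and -0.43 for compounds 5 and 6 (adjusted p = 0.227 and 0.155). The ANAPC2 value for compound 4 was -0.20 without compound 4 replicate 1 and -0.69 without replicate 2, where it passed (edgeR adjusted p = 0.0143), and that for compound 6 passed without compound 4 replicate 1 (0.0418). CDC23 had values of -0.37, -0.24, and -0.29 (adjusted p = 0.0772, 0.165, and 0.215). The CDC23 value for compound 4 was -0.47 and passed without compound 4 replicate 1 (edgeR adjusted p = 0.0449), and that for compound 5 was -0.14 without DMSO replicate 2. ANAPC13, at the upper end, had 0.35, 0.10, and 0.11 (0.0772, 0.553, and 0.65). The 1 subunit called against DMSO was ANAPC16, named after its values were seen, which was lower with compound 5 (-0.57 ± 0.13, edgeR adjusted p = 0.00857), where it measured 31.3 and 29.2 CPM against 49.2 and 40.8 in DMSO. The 2 DMSO samples lay far apart, and the call was lost without DMSO replicate 1 (edgeR adjusted p = 0.0918), compound 5 replicate 1 (0.05), or compound 5 replicate 2 (0.0697).

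The 19 substrates that the APC/C marks for destruction had the highest share of calls among the 5 lists. With compounds 4, 5, and 6, 19, 17, and 16 of them were lower and 0 were higher, with medians of -1.03, -0.73, and -0.69. Among all tested genes, 5.42%, 14.2%, and 1.6% were lower. With the replicate block, 11 of the 19 were called for compound 6. DLGAP5, a spindle assembly protein, measured 45.3 and 51.8 CPM in DMSO, 17.4 and 17.6 with compound 4, 22.2 and 23.7 after compound 5, and 32.2 and 20.0 after compound 6. These were log2 fold changes of -1.47 ± 0.19, -1.08 ± 0.19, and -0.90 ± 0.19 (SE, n = 2 per group; edgeR adjusted p = 0.00146, 0.00241, and 0.0264). NUSAP1, which bundles spindle microtubules, gave -1.37, -0.91, and -0.84 (adjusted p = 0.00092, 0.00246, and 0.0177). The smallest decrease with compound 4 was that of GMNN, geminin, the inhibitor of replication licensing, with -0.52, -0.90, and -0.64 (adjusted p = 0.048, 0.00192, and 0.0399). With the replicate block, GMNN was not called for compounds 4 and 6 (adjusted p = 0.066 and 0.0576). The GMNN calls for these compounds were kept in 3 of 8 fits that left out a library. They were lost without either DMSO replicate (0.187 to 0.201), without either compound 5 replicate (0.0668 to 0.0761), and without compound 4 replicate 1 in compound 4 (0.141) or compound 6 replicate 2 in compound 6 (0.362), whereas DLGAP5 and NUSAP1 were called in all 8 fits for compounds 4 and 5 and in 4 and 5 of the 8 for compound 6. The list holds several general proliferation genes.

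Of the 10 genes of the spindle checkpoint, which holds CDC20 in check until chromosomes are attached, 6, 6, and 4 were lower with compounds 4, 5, and 6, and 0 were higher. The shares lower among all tested genes were 5.42%, 14.2%, and 1.6%. The medians of the list were -0.73, -0.43, and -0.53. The kinase gene TTK (MPS1) measured 26.1 and 28.4 CPM in DMSO, 11.3 and 13.2 with compound 4, 18.3 and 21.8 after compound 5, and 19.2 and 16.2 after compound 6. Its log2 fold changes were -1.15 ± 0.15, -0.44 ± 0.15, and -0.63 ± 0.15 (SE, n = 2 per group; edgeR adjusted p = 0.00159, 0.0491, and 0.0447). With the replicate block, TTK was not called for compounds 5 and 6 (adjusted p = 0.0528 and 0.0547). Those calls were also lost without either DMSO replicate, among other libraries, and only 2 and 3 of the 8 fits that left out a library kept them, against all 8 for compound 4 (highest adjusted p of 0.0273 in edgeR). KNL1, the kinetochore scaffold on which the checkpoint assembles, had -1.08, -0.64, and -0.56 (adjusted p = 0.0029, 0.0159, and 0.0802). Its call for compound 5 was lost without DMSO replicate 2 (0.153) or either compound 5 replicate (0.127 and 0.0527). For compound 6 KNL1 passed without either compound 4 replicate (0.0422 and 0.0455), and its value was -0.37 without DMSO replicate 2. MAD2L1BP, which takes the checkpoint complex apart, was the highest with compound 4 and had -0.16, 0.06, and -0.29, none of which passed (adjusted p = 0.516, 0.779, and 0.32).

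Cohesin and its regulators were read from a list of 13 genes. Of these, 3 were lower with compound 4, 1 was lower and 1 higher with compound 5, and 1 was lower with compound 6. For compound 5 this was a smaller share than the 14.2% lower and 13.9% higher among all tested genes. ESCO2, the acetyltransferase that secures cohesion in S phase, measured 11.3 and 18.7 CPM in DMSO, 5.81 and 6.55 with compound 4, 7.15 and 8.16 after compound 5, and 10.3 and 6.67 after compound 6. The DMSO samples were far apart, and every treated sample lay below both. For ESCO2 the log2 fold changes were -1.28 ± 0.26, -0.97 ± 0.26, and -0.84 ± 0.26 (SE, n = 2 per group; edgeR adjusted p = 0.0115, 0.0185, and 0.0945). CDCA5 (sororin), which keeps the rings closed, had -0.77, -0.37, and -0.68 (adjusted p = 0.0064, 0.0708, and 0.026). MAU2, a subunit of the cohesin loader, had 0.06, 0.32, and 0.19 (adjusted p = 0.778, 0.0443, and 0.355), and was not called with compound 5 under the replicate block (0.0554). The MAU2 call was also lost without any single DMSO or compound 5 replicate (0.069 to 0.273), and those of ESCO2 and CDCA5 with compound 4 were lost without DMSO replicate 2 (0.142 and 0.0731). For compound 6 the CDCA5 call was kept in 5 of the 8 fits, with an adjusted p of up to 0.299 in edgeR, and its value for compound 5 was -0.17 without compound 5 replicate 1 and -0.56 without replicate 2, where it passed (0.0457). With compound 5, ESCO2 was not called without DMSO replicate 2 (0.208) or either compound 5 replicate (0.12 and 0.0628). Without DMSO replicate 2 its log2 fold changes were -0.87, -0.54, and -0.43 for compounds 4, 5, and 6. RAD21, the subunit that separase cuts, measured 222 and 211 CPM in DMSO and 165 and 154 with compound 4 (-0.44, adjusted p = 0.0193), and its values of -0.14 and -0.16 for compounds 5 and 6 did not pass (0.33 and 0.411). The call was lost without DMSO replicate 1 (edgeR adjusted p = 0.126), DMSO replicate 2 (0.102), or compound 4 replicate 2 (0.0695). It was named for being the substrate of separase, after its values were seen.

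The phosphatase that shugoshins recruit, PP2A with its B56 subunits, had 9 genes on its list, of which 1 was lower and 1 higher with compound 4, 1 lower and 2 higher with compound 5, and 1 higher with compound 6. Counts of 1 or 2 among 9 are near the shares of all tested genes for compounds 4 and 5 (5.42% and 14.2% lower, 6.5% and 13.9% higher), and DESeq2 called 1 gene with compound 5 where edgeR called 3. The gene that was higher with all 3 compounds was PPP2R5A, a B56 regulatory subunit. It measured 32.3 and 37.4 CPM in DMSO, 67.0 and 65.8 with compound 4, 69.6 and 76.5 after compound 5, and 50.0 and 59.1 after compound 6. The groups did not overlap, and the log2 fold changes were 0.93 ± 0.12, 1.07 ± 0.12, and 0.65 ± 0.13 (SE, n = 2 per group; edgeR adjusted p = 0.00159, 0.000312, and 0.0204). PPP2R1B, a scaffold subunit, had -0.48, -0.43, and -0.25 (adjusted p = 0.0444, 0.0365, and 0.335). Leaving out a library kept the PPP2R1B call in 3 of 8 fits for compound 4 and 4 of 8 for compound 5, with adjusted p up to 0.197 and 0.194, and it was lost without either DMSO replicate in both. The PPP2R5A calls were kept in all 8 fits for compounds 4 and 5, and lost for compound 6 without DMSO replicate 1 (0.162), DMSO replicate 2 (0.118), or compound 6 replicate 2 (0.221). PPP2R5D, another B56 subunit, had -0.28, -0.16, and -0.18, none of which passed (0.123, 0.28, and 0.404).

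**Figure D4:**
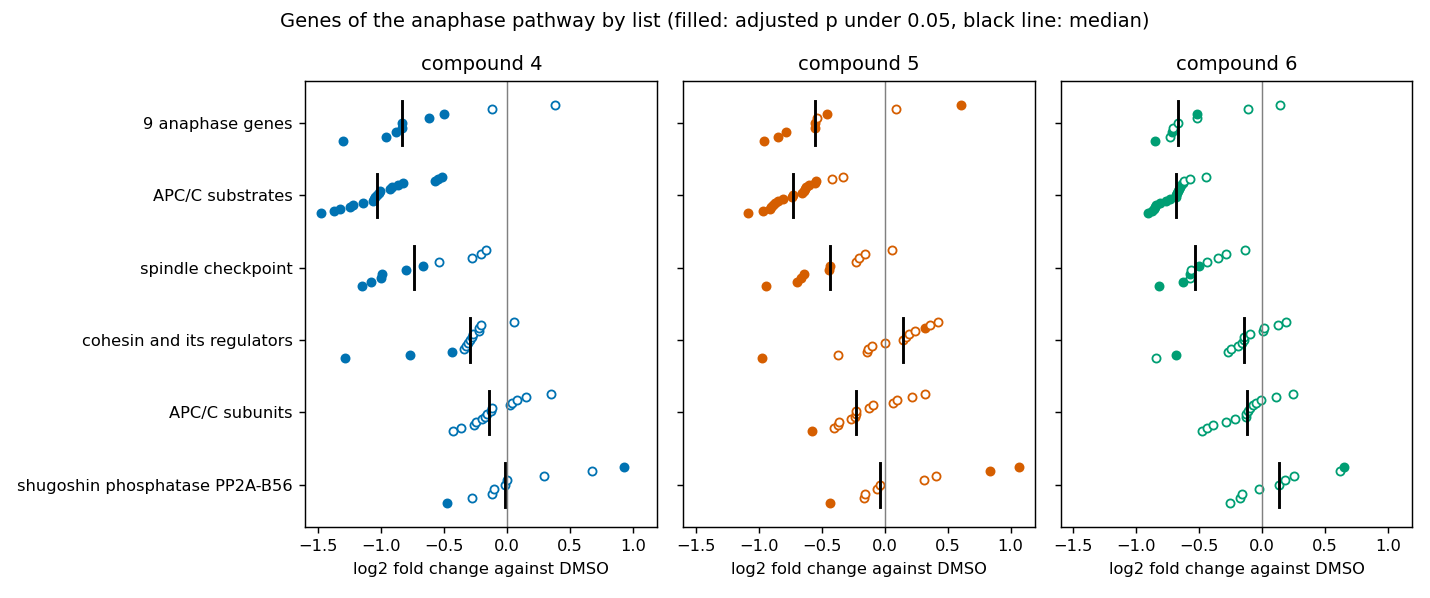
Log2 fold change against DMSO (horizontal axis, edgeR) of every gene in the list of 9 and in the 5 pathway lists, with 1 panel per compound; each point is a gene, filled where the adjusted p is under 0.05, the black line is the median of the list, and the height within a list only spreads the points. The 19 substrates lie left of 0 in all panels, whereas the 14 APC/C subunits scatter around medians of -0.15, -0.23, and -0.12.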

How the data were processed

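Strand-specific RNA libraries of 8 samples were analysed. The authors checked reads with FastQC 0.12.0, quantified them with Salmon 1.5.0 against GENCODE 38, and summed them to genes with tximeta 1.16.0. The deposited values are estimated counts in whole numbers, without scaling. The authors' own tests used DESeq2 1.38.3. Symbols came from a gene name table, and 99.8% of the identifiers matched. Coordinates and transcripts came from GENCODE 29, which is an older release than the one used for counting.

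In R 4.3.3, edgeR 4.0.16 kept 13404 genes with filterByExpr and scaled libraries by TMM (factors 0.958 to 1.04). A quasi-likelihood model of the 4 groups was fitted to all 8 samples. A gene counted as called when its p, adjusted over all tested genes by Benjamini-Hochberg, was under 0.05. The SE is the fold change divided by the root of its F. DESeq2 1.42.0 was an alternative. The procedure was tested on simulated data.

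The members and lists were chosen with earlier results of these data known. Named genes are the 9 members, the 2 lowest and the highest gene of each pathway list with compound 4, the 5 genes most like the members' mean profile, and the copies named after a member. RAD21, ANAPC16, FBXO43, and PTTG1IP fall outside this rule and were named after their values were seen. The labels number replicates by day. Deviations of samples with the same number had correlations between -0.083 and 0.16 over genes.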

Additional observations from a re-analysis of the deposited data

How the results depend on the processing

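The alternatives were DESeq2, RLE, upper-quartile and library-size scaling, no filter, a minimum of 10 counts per sample, a replicate block, a fit of only the groups compared, added counts of near-identical copies, a cutoff of 0.01, and 8 fits that each left out 1 library, in which a lone sample was assumed to vary like the other groups. At a cutoff of 0.01, 3, 2, and 0 members were called with compounds 4, 5, and 6, and 18 and 2 pathway genes with compounds 5 and 6. Calls over all genes at that cutoff were 591, 1809, and 92 with compounds 4, 5, and 6. With no filter or with only the groups compared, 7 members were called for compound 6, while calls over all genes rose from 590 to 1441 and 881. No filter gave 1 call each between compounds 5 and 4 and between 5 and 6, with 2812 and 2117 calls over all genes. The median for compound 5 was -0.64 with upper-quartile and -0.65 with library-size scaling, and library-size scaling shifted the median of all genes by -0.10. Scaling by library size turned FZR1 with compound 5 to -0.013. Between compounds 5 and 6, ESPL1 turned to -0.0802 with upper-quartile scaling, -0.077 with library-size scaling, and -0.0046 with at least 10 counts. The block (compound 6: 2 members, 16 pathway genes) changed no other call of a member against DMSO than that of PTTG1.

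Without 1 library, members called ranged from 2 to 7 (compound 4), 2 to 8 (compound 5), and 0 to 7 (compound 6), and between compounds 5 and 4 from 0 to 1. Pathway genes called ranged from 19 to 37, 9 to 35, and 0 to 27 for compounds 4, 5, and 6. The member median ranged from -0.84 to -0.64, -0.59 to -0.46, and -0.67 to -0.44. FZR1 with compound 5 ranged from -0.052 to 0.25, and UBE2S with compound 6 from -0.012 to 0.30. Between compounds 5 and 6, ESPL1 ranged from -0.16 to 0.19 and CDC20 from -0.14 to 0.093. The causes of these changes were not tested. The limit is the 2 samples per group: SGO1, with 78 to 154 counts per library, was the member most exposed to counting error.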

Other observations

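Relatives and partners of the anaphase genes, some of them known mainly from germ cells or oocytes and others broadly expressed, were read from a list of 9 genes, of which 4 passed the filter on low counts. FBXO43 (EMI2), the relative of FBXO5 that holds the egg in metaphase, measured 4.92 and 5.51 CPM in DMSO, 2.31 and 2.50 with compound 4, 0.917 and 2.12 after compound 5, and 2.50 and 2.88 after compound 6. Every treated sample was below both controls, and the log2 fold change passed the test with compound 5 (-1.75 ± 0.36, SE, n = 2 per group; edgeR adjusted p = 0.00511) but not with compounds 4 and 6 (-1.12 and -0.95, adjusted p = 0.0543 and 0.14). The value for compound 4 passed without compound 5 replicate 1 (0.0347) or compound 5 replicate 2 (0.0324), and edgeR kept the call for compound 5 in all 8 fits that left out a library. PTTG1IP, a broadly expressed binding partner of securin, measured 414 and 370 CPM in DMSO and was higher with compound 4, at 534 and 524 CPM (0.43 ± 0.10, edgeR adjusted p = 0.0183), a call that was lost without DMSO replicate 1 (0.0519) or DMSO replicate 2 (0.187). With compounds 5 and 6 its values were 0.25 and 0.04 (adjusted p = 0.0784 and 0.876), of which the former passed without compound 4 replicate 2 (0.0415). CDC20B, PTTG2, SMC1B, and RAD21L1 were at 0 in all 8 libraries.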
